A study of Homo sapiens with 9 samples.

Results

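Knockdown of AKR1B1 was compared with its control in A549 cells, an established human lung adenocarcinoma line, as 3 labelled biological replicate libraries against 3, of 9 in the series. Of 57905 gene IDs counted, 16916 passed the expression filter and were tested. AKR1B1 encodes aldose reductase, the enzyme that reduces glucose to sorbitol and also clears aldehydes, and the series asks how this polyol pathway relates to aggressive behaviour of cancer cells. Control cells are named plko in the titles and scrambled controls in the treatment label, knockdown cells carried an shRNA (a hairpin RNA that directs destruction of a matching transcript) against AKR1B1, named shAKR1B1, and the remaining group carried one against SORD, the next enzyme of the pathway (shSORD). All groups were grown in medium with 5% serum. Each target has 1 hairpin label and 1 control label, so effects of a hairpin sequence or of a single transduced population cannot be told apart from the knockdown. Nothing in the labels says whether replicates were separate transductions, and the p-values therefore describe only how these libraries spread, possibly a technical spread. What follows describes the genes and programs outside the epithelial-mesenchymal, TGF-beta and central metabolic genes.

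Total counts ran from 32436524 to 43044456 per library. Log CPM (counts divided by the scaled library size) correlated at 0.9952 to 0.9956 within the groups and at 0.9667 to 0.972 between control and shAKR1B1, and replicates of a group differed by more than counting noise. The epithelial genes KRT7, KRT8, KRT18 and EPCAM summed to 317363 to 336678 counts per control library and 391364 to 526778 with shAKR1B1, the 6 alveolar type II genes to 54 to 72 and 70 to 119, so that identity was nearly absent, and CDKN2A, whose locus A549 lacks, had 0 to 2. Markers of other cell types were few: the 10 leukocyte genes summed to 430 to 442 counts per control library and 332 to 442 with shAKR1B1, the 8 endothelial genes to 71 to 87 and 50 to 65, the 8 fibroblast and pericyte genes to 593 to 696 and 354 to 463, the 6 mesothelial genes to 807 to 892 and 556 to 817, and the 4 red cell genes to 1 to 2 and 1 to 4. In bulk RNA, fewer cells of a type and less RNA per cell cannot be told apart, and the part of these markers in the results was not tested. At an adjusted p under 0.05, 4705 genes (27.8%) rose and 5011 (29.6%) fell, with 1429 (8.45%) rising and 664 (3.93%) falling at least 2-fold. Counts over the lists below are to be read beside these shares. The median log2 fold change of all genes tested was -0.0024. Over all genes, 5186 (30.7%) differed between shAKR1B1 and shSORD, 2628 higher and 2558 lower with shAKR1B1. Unless said otherwise, levels are mean CPM ± SD of n = 3 libraries per group, changes are log2 fold changes of shAKR1B1 against control, SE is their standard error, and adjusted p-values are from edgeR's quasi-likelihood test with Benjamini-Hochberg adjustment over all genes tested. "Rose" and "fell" are used only of genes past that threshold.

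AKR1B1 fell in every knockdown library. It stood at 1456, 1395 and 1397 CPM in the control libraries and 146, 148 and 167 CPM with shAKR1B1 (log2 change of -3.20 with an SE of 0.0754, adjusted p = 5.4e-13), so the groups were far apart. The 3 shSORD libraries held 945, 1109 and 1135 CPM. The aldo-keto reductases are a family of NADPH-dependent enzymes that reduce carbonyl groups of sugars, lipid aldehydes, steroids and prostaglandins. Of 12 members tested, 7 rose and 2 fell. AKR1B10, the closest relative of AKR1B1 among the expressed members and a retinal and aldehyde reductase, stood at 4929, 4989.6 and 4922 CPM in the control libraries and 6872, 6826 and 6586 CPM with shAKR1B1 (log2 change of 0.45 with an SE of 0.0429, adjusted p = 4.57e-07). AKR1B15, a near copy of AKR1B10 whose reads may be shared with it, rose by 0.31 on the log2 scale. Every tested AKR1C gene, encoding hydroxysteroid dehydrogenases, rose: AKR1C1 from 512 ± 0.320 to 949 ± 40.7 CPM (0.89), AKR1C2 by 0.21, AKR1C3 by 0.27 and AKR1C4 by 1.21, although their near-identical sequences make the split between them uncertain. AKR1A1, aldehyde reductase, did not pass (0.12, adjusted p = 0.103), AKR1E2, which acts on a sugar derivative, rose by 0.21, a call that ended without shAKR1B1 replicate 1 (adjusted p = 0.0553 by edgeR) or control replicate 3 (0.0532) and with no filter (0.0676), and AKR7L fell from low counts (13 to 25 per control library). AKR1B10, AKR1B15, AKR1C2, AKR1C3 and AKR1C4 were also higher than with shSORD in the direct contrast, whereas AKR1C1 (shSORD 0.79) was not called there.

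**Figure D1:**
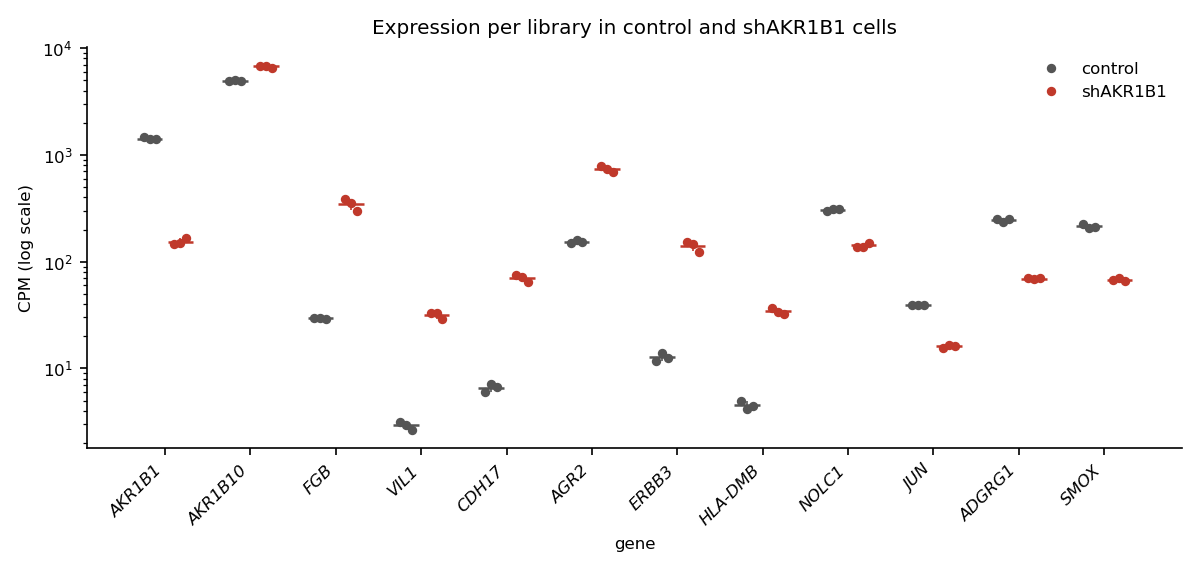
CPM on a log axis for 12 genes. Each point is 1 library, grey for control and red for shAKR1B1, with bars at the mean and lines over 1 SD of 3 libraries. For every gene shown, the 3 shAKR1B1 libraries lie on 1 side of the 3 control libraries, from the fall of AKR1B1 (1416 ± 34.7 to 154 ± 11.7 CPM) to the rise of FGB (29.6 ± 0.338 to 346 ± 41.4 CPM).

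Genes that act around aldose reductase moved in mixed directions. Sorbitol is an osmolyte, and the gene of the enzyme is itself a target of the osmotic stress factor NFAT5. NFAT5 rose from 65.3 ± 1.71 to 84.8 ± 5.92 CPM (log2 change of 0.38 with an SE of 0.109, adjusted p = 0.00843) and was higher than with shSORD (-0.01 there). The taurine carrier SLC6A6, one of its targets, fell slightly (-0.19). Of 23 genes of osmotic and volume control, 8 rose and 8 fell. The 3 aquaporins that rose were AQP7 (2.40, from 23 to 26 counts per control library), AQP11 (0.90) and AQP3, a water and glycerol channel, from 61.5 ± 3.87 to 113 ± 6.74 CPM (0.88) where shSORD stood at -1.22. The potassium-chloride cotransporter SLC12A7 (0.33), the sodium-potassium-chloride cotransporter SLC12A2 (0.22) and the kinase SGK1 (1.02) rose. The volume-regulated anion channel subunits LRRC8A (-0.32), LRRC8B (-0.36), LRRC8C (-0.52) and LRRC8E (-0.34) and the kinases WNK2 (-0.33), WNK4 (-0.26) and OXSR1 (-0.30) fell. The call of SLC12A2 ended without shAKR1B1 replicate 1 (adjusted p = 0.15 by edgeR) or any 1 control library (0.0598 to 0.0906), that of LRRC8E without shAKR1B1 replicate 2 (0.0676) and that of WNK4 without any 1 of the 6 libraries (0.0548 to 0.152). The call of WNK4 also ended under upper quartile scaling, with no filter and with the stricter one, in the fit of 6 libraries, with the replicate block (0.0503) and with DESeq2 (0.126).

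Of 8 enzymes of the defence against methylglyoxal, other dicarbonyls and glycation, 1 (12.5%) rose and 3 (37.5%) fell. Over all genes 27.8% rose and 29.6% fell. The 2 receptor genes of that list did not pass. The glyoxalase GLO1 fell from 155 ± 4.61 to 132 ± 5.41 CPM (log2 change of -0.23 with an SE of 0.0852, adjusted p = 0.0295), and the related GLOD4 (-0.16) and the oxidative stress protein PARK7 (-0.22) fell too, while the metallo-hydrolase LACTB2 rose (0.34). The call of GLO1 ended without any 1 library except control replicate 2 (adjusted p = 0.0507 to 0.118 by edgeR) and that of GLOD4 without shAKR1B1 replicate 2 (0.0581), and both ended under upper quartile scaling (0.0808 and 0.108). AKR1B1 also makes prostaglandin F2-alpha. Of 21 genes of prostaglandin and leukotriene handling 6 rose and 6 fell (28.6% each), shares near those of all genes. In synthesis, PTGES, the inducible prostaglandin E synthase, stood at 28.4, 27.9 and 24.8 CPM in the control libraries and 8.64, 8.93 and 9.33 CPM with shAKR1B1 (log2 change of -1.59 with an SE of 0.0924, adjusted p = 2.51e-09), without overlap, and PTGES2 (-0.57), the cyclooxygenase PTGS1 (-0.80) and the carbonyl reductases CBR1 (-0.16) and CBR3 (-0.67) fell as well, the call of CBR1 ending without any 1 library except control replicate 2 (adjusted p = 0.0649 to 0.119 by edgeR), under upper quartile scaling (0.182) and with the stricter filter (0.0736). The inducible cyclooxygenase PTGS2 stood at 67.2, 64.9 and 64.5 CPM in the control libraries and 73.5, 67.9 and 65.6 CPM with shAKR1B1 (log2 change of 0.07 with an SE of 0.09996, adjusted p = 0.554), with overlapping groups. With shSORD it was at -1.27 against control, and the knockdowns differed (adjusted p = 1.72e-07). On the breakdown side the reductases PTGR1 (0.43) and PTGR2 (0.62) rose. The leukotriene genes ALOX5 (2.84, 12 to 17 counts per control library) and LTA4H (0.31), the thromboxane synthase TBXAS1 (0.34) and PTGFRN (0.41) rose, and ALOX5AP, with 15 to 23 counts per control library and 0 to 5 with shAKR1B1, fell.

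Genes of digestive-tract and liver epithelium had among the highest medians of the lists. In these tissues the nuclear receptor HNF4A switches on genes for the brush border, the layer of microvilli through which enterocytes absorb, and for plasma proteins that hepatocytes secrete. A549 is a lung line, and such genes started low in most cases. Promoters of 2 members that carry letters this factor is known to read are shown first, as 120 bases before the start from RefSeq on GRCh38.p14, with the matching letters in capitals. Both hold the HNF4 element CAAAGTCCA on the opposite strand, so it reads TGGACTTTG in the letters printed. Both strands were searched.
MYO1A, chr12:57050130-57050249, minus strand: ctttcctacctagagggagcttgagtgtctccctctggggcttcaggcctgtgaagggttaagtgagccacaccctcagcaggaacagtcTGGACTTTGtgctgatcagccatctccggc
MUC13, chr3:124934752-124934871, minus strand: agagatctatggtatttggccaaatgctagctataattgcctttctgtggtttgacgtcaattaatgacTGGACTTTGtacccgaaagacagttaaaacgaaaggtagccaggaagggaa
Both genes rose (MYO1A 3.81 and MUC13 1.83). In a window of 300 bases from 250 before to 50 after each start, CAAAGTCCA was present in 0.472% of all genes with a RefSeq promoter and in 0.493% of the genes tested here. By list, it was found in 1 of 26 tested intestinal genes with a promoter, 1 of 24 of clotting, 1 of 16 of the hepatocyte list, 1 of 17 of the mucin list and 2 of 27 of the xenobiotic oxidation list, and in 0 of 26 of the conjugation list, 0 of 14 of complement and 0 of 83 of ribosome biogenesis. A match in the letters is a description of these windows and says nothing of binding.

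Most detected genes of the intestinal brush border and secretory cells rose. Of 59 listed, 33 passed the filter, and of these 24 rose, 23 of them at least 2-fold, 0 fell and 9 did not pass the test (median log2 fold change 2.26). A gene silent in control cells passes the filter only through the cells in which it is high, so this count describes the detected members only. The same caution holds for the liver, mucin and xenobiotic lists below. Villin (VIL1), which bundles actin in microvilli, stood at 3.15, 2.97 and 2.65 CPM in the control libraries and 33.4, 33.2 and 28.9 CPM with shAKR1B1 (log2 change of 3.44 with an SE of 0.0993, adjusted p = 1.39e-12). All 3 knockdown libraries lay about an order of magnitude above the controls. MYO1A, the motor that ties the bundle to the membrane, stood at 1.66, 1.75 and 1.45 CPM in the control libraries and 22.9, 22.5 and 22.5 CPM with shAKR1B1 (log2 change of 3.81 with an SE of 0.107, adjusted p = 1.15e-12). Cadherin 17 (CDH17), an intestinal adhesion protein, stood at 5.99, 7.16 and 6.64 CPM in the control libraries and 74.5, 71.8 and 64.4 CPM with shAKR1B1 (log2 change of 3.41 with an SE of 0.107, adjusted p = 3.58e-12). Neither gene's groups overlapped. EPS8L3, a relative of the actin-capping EPS8, rose 9.81-fold, the microvillus tip-link scaffolds USH1C 6.14-fold and ANKS4B 7.03-fold, and the tip-link cadherin CDHR2 had 7 to 10 counts per control library and 52 to 77 with shAKR1B1. In all, 12 of 13 tested microvillus genes rose. Digestion and absorption genes rose in 9 of 17, with the disaccharidase MGAM from 6.02 ± 0.446 to 36.3 ± 2.94 CPM (2.59). Of 15 listed secretory genes only 3 passed the filter, and these 3 rose, so most of that role was not tested. AGR2, a disulfide isomerase of the secretory pathway that mucus cells need, stood at 150.03, 159 and 153 CPM in the control libraries and 783, 736 and 690.0 CPM with shAKR1B1 (log2 change of 2.26 with an SE of 0.0771, adjusted p = 8.47e-12).

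Genes of plasma proteins rose with them. Of 53 listed hepatocyte secreted proteins 22 passed the filter, and 15 rose and 1 fell (median 1.499). Ceruloplasmin (CP), the copper-carrying ferroxidase, rose from 74.5 ± 2.56 to 358 ± 51.6 CPM (log2 change of 2.26 with an SE of 0.138, adjusted p = 4.23e-09). The elastase inhibitor SERPINA1 rose from 1.06 ± 0.108 to 6.90 ± 0.838 CPM (2.70) and corticosteroid-binding globulin SERPINA6 from 3.04 ± 0.425 to 16.1 ± 1.69 CPM (2.41). The exception was the apolipoprotein APOC1, which fell from 48.1 ± 0.212 to 22.6 ± 2.38 CPM (-1.09). Albumin (ALB) had 1 count in each control library and 16 to 22 with shAKR1B1, a rise within very few counts.

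Clotting genes other than the fibrinogen chains moved in both directions within each role. All 3 fibrinogen chains, the precursors of fibrin, rose: FGB stood at 29.7, 29.8 and 29.2 CPM in the control libraries and 383, 355 and 301 CPM with shAKR1B1 (log2 change of 3.55 with an SE of 0.0987, adjusted p = 1.04e-12), FGG at 18.5, 18.3 and 19.1 CPM in the control libraries and 181, 171 and 140.1 CPM with shAKR1B1 (log2 change of 3.14 with an SE of 0.113, adjusted p = 1.44e-11) and FGA at 33.4, 35.5 and 36.1 CPM in the control libraries and 286, 279 and 229 CPM with shAKR1B1 (log2 change of 2.92 with an SE of 0.0977, adjusted p = 6.82e-12). For each chain the lowest knockdown library was above the highest control library. Of 9 tested clotting factors 7 rose, among them F5 from 8.62 ± 0.228 to 73.9 ± 4.06 CPM (3.10), F7 (10 to 15 counts per control library and 185 to 214 with shAKR1B1) and F13B (5 to 15 and 127 to 131). F8 fell (-0.67). Of 6 fibrinolysis genes 2 rose and 3 fell: the protease inhibitor SERPINE2 (-0.89), urokinase PLAU (-0.22) and tissue plasminogen activator PLAT (-1.40; shSORD 0.27, lower than with shSORD at adjusted p = 5.05e-08). Among 6 inhibitors of clotting 3 rose and 1 fell, with TFPI, which blocks the tissue factor pathway, at 1.55 and thrombomodulin THBD at -0.32, the call of THBD ending without control replicate 1 (adjusted p = 0.0516 by edgeR). Of 3 vitamin K cycle genes 1 rose and 2 fell, the reductase VKORC1L1 slightly (-0.40). These roles hold few genes each. Over the whole list 16 rose and 7 fell of 27 tested.

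Complement, the plasma cascade that marks cells for removal, was mixed as well. Of 10 tested regulators 7 rose and 1 fell, and of 10 components 4 rose and 3 fell. C4BPA, a soluble restrainer of the cascade, rose by 2.74, the component C5 from 44.0 ± 0.397 to 217 ± 21.3 CPM (2.30) and vitronectin (VTN), which blocks the end of the cascade, from 12.8 ± 0.689 to 59.3 ± 1.27 CPM (2.21). The early proteases C1R (-0.41) and C1S (-0.17), the protease CFD (-0.69) and the membrane inhibitor CD59 (-0.30) fell, each by less than 1 on the log2 scale, and each was lower than with shSORD, where C1R stood at 0.70, C1S at 0.34, CFD at 0.04 and CD59 at 0.25. The call of C1S ended without any 1 of the 6 libraries (adjusted p = 0.0624 to 0.141 by edgeR), under RLE and upper quartile scaling, with the stricter filter and with DESeq2 (0.0543). Of 22 tested members 11 rose and 4 fell (median 0.46).

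Surface and secreted proteins of mucous epithelia rose, 17 of 21 tested with 2 falling (median 1.66), counting mucins, CEACAM adhesion proteins and the TM4SF tetraspan proteins. TM4SF20 stood at 12.4, 11.98 and 11.8 CPM in the control libraries and 235.5, 213 and 189.9 CPM with shAKR1B1, a separation of more than an order of magnitude (log2 change of 4.14 with an SE of 0.122, adjusted p = 1.78e-12), and TM4SF5 had 10 to 17 counts per control library and 139 to 182 with shAKR1B1. The membrane mucin MUC16 stood at 4.14, 4.69 and 4.61 CPM in the control libraries and 66.1, 62.0 and 49.1 CPM with shAKR1B1 (log2 change of 3.72 with an SE of 0.170, adjusted p = 1.82e-10), the gel-forming airway mucin MUC5AC at 170.2, 175 and 173 CPM in the control libraries and 1381, 1355 and 1380.0 CPM with shAKR1B1 (log2 change of 2.99 with an SE of 0.106, adjusted p = 1.25e-11), again without overlap. CEACAM7 rose by 3.42, and members of the CEACAM and MUC5 families resemble each other enough for reads to be shared. MUC5AC was higher than with shSORD (0.54; adjusted p = 3.62e-10), as was MUC16 (2.01), whereas CEACAM7 (3.31) was not called between the knockdowns. Secreted defence proteins rose too: of 16 epithelial proteases and inhibitors 10 rose and 3 fell, led by the airway protein BPIFB1 (3 to 7 counts per control library and 184 to 217 with shAKR1B1), lipocalin LCN2 (2.15), which starves bacteria of iron, and the elastase inhibitors PI3 (1.49 ± 0.202 to 5.58 ± 0.481 CPM) and SLPI (1.87). The serine protease PRSS23 fell from 577 ± 0.911 to 293 ± 5.35 CPM (-0.98), with -0.03 with shSORD, and the cathepsin inhibitor CSTB fell by 0.47.

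Other surface genes moved both ways. Sugar-adding enzymes of the secretory pathway split, with 36 of 96 rising and 33 falling. ST6GALNAC1, which caps mucin sugars with sialic acid, rose by 2.55, the mucin-initiating GALNT5 by 2.40, and ST6GAL2 from 24.6 ± 0.845 to 123 ± 7.20 CPM (2.33), while the sulfotransferases CHST1 (-2.69) and CHST11 (-1.38) and the glycan-branching MGAT5B (-1.68) fell. Among 23 S100 and annexin genes 10 rose and 6 fell, with the intestinal annexin ANXA13 from 12.9 ± 1.02 to 114 ± 8.40 CPM (log2 change of 3.14 with an SE of 0.105, adjusted p = 6.82e-12) and ANXA4 from 444 ± 17.0 to 990.0 ± 25.4 CPM (1.16). Claudin 2 (CLDN2), which forms cation pores in tight junctions, rose from 153 ± 1.23 to 399 ± 9.84 CPM (1.39), against 0.25 with shSORD. The liver gap-junction protein GJB1 rose by 3.83 and the basolateral membrane anchor ANK3 by 3.94. NEB, a giant actin-filament protein, stood at 7.76, 8.94 and 9.54 CPM in the control libraries and 137, 138 and 115 CPM with shAKR1B1 (log2 change of 3.89 with an SE of 0.106, adjusted p = 9.97e-13), so its lowest knockdown library exceeded every control library.

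**Figure D2:**
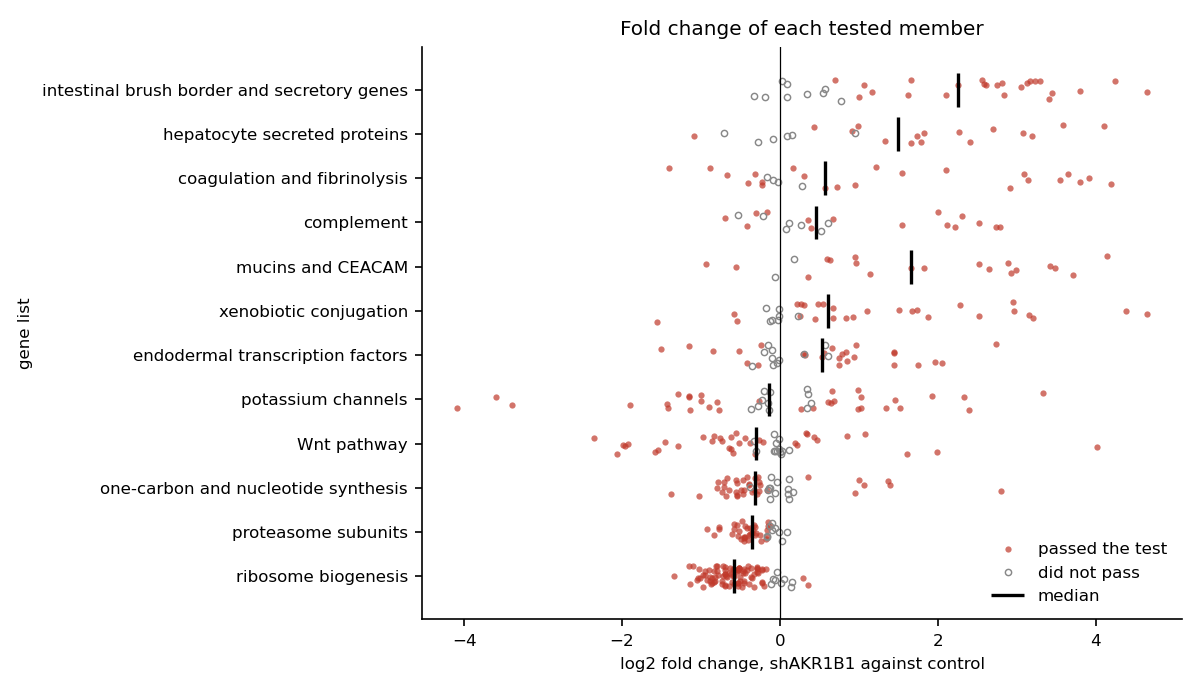
Fitted log2 fold change of every tested member of 12 gene lists, 1 point per gene (vertical position within a row has no meaning). Filled red points passed the test, open grey points did not, and black bars mark list medians, from 2.26 for the intestinal list to -0.58 for ribosome biogenesis.

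Transcription factors of the endodermal lineages rose more often than they fell. Of 37 tested 19 rose and 7 fell (median 0.53). By role, 6 of 7 HNF and FOXA genes rose and 1 fell (median 1.44), and 4 of 10 GATA, SOX and homeobox genes rose and 1 fell (0.59). Of 20 CEBP, KLF, ETS and other factors 9 rose and 5 fell (-0.05). HNF4A stood at 35.1, 33.7 and 35.1 CPM in the control libraries and 92.6, 92.6 and 97.0 CPM with shAKR1B1 (log2 change of 1.44 with an SE of 0.0573, adjusted p = 4.16e-11). Each knockdown library lay above every control library. HNF4A with shSORD was at 1.32, and the difference between the knockdowns did not pass (adjusted p = 0.112). HNF4G rose by 2.74 and the bile acid receptor NR1H4 by 2.05, from 46 to 52 and 43 to 51 counts per control library. SOX2, a factor of foregut progenitors, rose by 1.75. The mucous-cell factor SPDEF rose by 1.44 against -0.08 with shSORD (adjusted p = 5.7e-08 between them). In the other direction, FOXA2 (-0.42), SOX4 (-0.51), NR5A2, which regulates bile acid genes (-0.84), and KLF4, from 20.3 ± 1.45 to 9.18 ± 0.513 CPM (-1.15), fell. A list of 24 nuclear receptors shares HNF4A, HNF4G and NR5A2 with this one. It is not the whole family, as PPARG, given below as falling, lies outside it. Of the 24, 13 rose and 4 fell, with NR4A2 (1.47) and the thyroid hormone receptor THRB (1.01) rising and the vitamin D receptor VDR (-0.81) and NR2F6 (-0.57) falling.

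Enzymes that process foreign compounds and hormones rose more often than all genes did. In the oxidation and hydrolysis list 23 of 38 tested rose and 7 fell (median 0.76), and in the conjugation list 24 of 34 rose and 3 fell (median 0.61). CYP3A5, a broad drug-oxidising cytochrome P450, stood at 4.58, 3.61 and 4.53 CPM in the control libraries and 33.0, 31.7 and 29.1 CPM with shAKR1B1 (log2 change of 2.88 with an SE of 0.1252, adjusted p = 1.06e-10), without overlap. The flavin monooxygenase FMO5 rose by 3.503 and the alcohol dehydrogenase ADH6 by 4.31, both from few counts per control library (24 to 32 and 32 to 51). CYP24A1, which inactivates vitamin D, rose from 1272 ± 20.8 to 2406 ± 92.9 CPM (0.92) while CYP27B1, which activates it, fell (-1.40). The carboxylesterases CES1 (-1.37) and CES2 (-0.29) fell, and CES1 less than with shSORD (-2.34). All 10 tested UDP-glucuronosyltransferases rose, among them UGT1A6 (1.74) and UGT2B11 (1.11), most from few counts and with near-identical family members. Of 14 glutathione transferases 12 rose and 0 fell, including GSTM2 (1.68). The methyltransferase NNMT fell from 78.0 ± 1.18 to 26.5 ± 1.24 CPM (log2 change of -1.56 with an SE of 0.0584, adjusted p = 2.15e-11).

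Efflux pumps rose in 7 of 11 tested, the drug exporter ABCB1 from 1.41 ± 0.153 to 10.4 ± 0.580 CPM (2.88) and ABCC6 by 2.16, while the organic anion and carnitine carriers SLCO4A1 (-1.31) and SLC22A4 (-1.37) fell. The aryl hydrocarbon receptor AHR stood at 43.0, 43.6 and 43.2 CPM in the control libraries and 85.8, 81.8 and 80.8 CPM with shAKR1B1 (log2 change of 0.94 with an SE of 0.0652, adjusted p = 1.68e-08), without overlap, and was higher than with shSORD (0.15). Its repressor AHRR (-1.39) and its partner ARNT2 (-0.60) fell. Protective enzymes divided: among 26 antioxidant genes 6 rose and 10 fell. GPX2, the glutathione peroxidase of gut epithelium, rose from 244 ± 14.2 to 780.0 ± 22.2 CPM (log2 change of 1.68 with an SE of 0.0676, adjusted p = 4.81e-11) and glutaredoxin GLRX by 1.01, while the ubiquitous GPX1 fell from 98.4 ± 4.07 to 51.4 ± 4.02 CPM (-0.94). Of 18 aldehyde dehydrogenases 7 rose and 4 fell. ALDH1A1, abundant in this line, rose from 8057 ± 44.3 to 10389 ± 282 CPM (0.37) and mitochondrial ALDH2 by 0.92, and ALDH1A3 (-0.93) and ALDH1B1 (-0.87) fell. Among 26 retinoid genes 9 rose and 9 fell, with the retinol carrier RBP4 (1.499; shSORD -0.04) and the retinol dehydrogenase RDH10 (1.01) rising and the receptors RARA (-0.74) and RXRA (-0.49) falling.

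In the opposite direction, the machinery that builds ribosomes fell almost throughout. Of 97 tested ribosome biogenesis genes 87 fell and 2 rose (median -0.58), against 29.6% and 27.8% of all genes. The transcription factor MYC is known to raise such genes through the E-box CACGTG. The promoters below, 120 bases before the start from RefSeq on GRCh38.p14 with the E-box in capitals, belong to members that fell.
POLR1G, chr19:45406524-45406643, plus strand: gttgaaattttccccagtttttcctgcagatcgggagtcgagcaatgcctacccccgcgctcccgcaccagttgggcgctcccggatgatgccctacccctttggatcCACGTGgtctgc
UTP4, chr16:69132529-69132648, plus strand: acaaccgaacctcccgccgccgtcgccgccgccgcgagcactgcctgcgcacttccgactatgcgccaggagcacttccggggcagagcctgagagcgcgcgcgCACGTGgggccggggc
DDX21, chr10:68956527-68956646, plus strand: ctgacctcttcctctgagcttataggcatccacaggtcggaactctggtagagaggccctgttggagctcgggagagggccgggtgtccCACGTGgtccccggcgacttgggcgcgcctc
CACGTG, which reads the same on both strands, occurred in the 300-base windows of 33 of 83 ribosome biogenesis genes with a RefSeq promoter (39.8%), against 12.2% of all tested genes with one and, of the lists described below, 15.2% of aminoacyl-tRNA synthetases and 5.13% of proteasome genes. Of these 33 genes 32 fell and 1 was not called, and of all 97 tested members 87 fell, so the fall was not confined to genes with the box. POLR1G, UTP4, DDX21 and MYC were chosen after their values were seen. The motif is a description of the letters, binding was not measured, and a part of MYC in the fall was not tested. POLR1G, a subunit of RNA polymerase I, stood at 44.1, 44.1 and 44.2 CPM in the control libraries and 20.4, 21.6 and 22.0 CPM with shAKR1B1 (log2 change of -1.05 with an SE of 0.0870, adjusted p = 1.09e-07), the pre-rRNA processing factor UTP4 at 123, 123 and 115 CPM in the control libraries and 62.3, 61.5 and 66.9 CPM with shAKR1B1 (log2 change of -0.92 with an SE of 0.0693, adjusted p = 3.78e-08) and the nucleolar helicase DDX21 at 371, 389 and 391 CPM in the control libraries and 234, 238 and 237 CPM with shAKR1B1 (log2 change of -0.70 with an SE of 0.0658, adjusted p = 4.07e-07). In each case all knockdown libraries were below all controls.

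The largest falls among the 97 were in RRP12 (-1.34), which exports small subunits, RRS1 (-1.15) and DDX10 (-1.14), which act in subunit assembly, and NOLC1, a chaperone of small nucleolar RNPs, at 296, 309 and 310.1 CPM in the control libraries and 137, 137 and 151 CPM with shAKR1B1 (log2 change of -1.10 with an SE of 0.0648, adjusted p = 2.7e-09). POLR1D, shared by RNA polymerases I and III (0.36), and NMD3, an export adaptor of the large subunit (0.30), were the members that rose. MYC itself stood at 155, 146 and 149 CPM in the control libraries and 94.5, 95.0 and 103 CPM with shAKR1B1 (log2 change of -0.63 with an SE of 0.0571, adjusted p = 2.97e-07). With shSORD the list's median was -0.61 and MYC stood at -0.68 against the same control libraries, and 22 of the 97 differed in the direct contrast, against 30.7% of all genes. Of the cytosolic ribosomal proteins themselves, 6 rose and 21 fell of 82 (median -0.04). Mitochondrial ribosomal proteins fell in 55 of 75 and rose in 2 (median -0.28), among them MRPS16 (-0.72) and MRPL12 (-0.67). The enzymes that charge tRNAs fell in 29 of 41 and rose in 2, with methionyl-tRNA synthetase MARS1 from 223 ± 2.30 to 116 ± 12.3 CPM (-0.94), YARS1 (-0.85) and the scaffold AIMP2 (-0.92).

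Protein folding and breakdown genes also fell. Of 45 proteasome genes 36 fell and 0 rose (median -0.36; shSORD -0.35). The activator subunit PSME3 fell from 319 ± 5.33 to 188 ± 11.5 CPM (-0.77), and the lid subunit PSMD6 fell by 0.78. In cytosolic chaperones 30 of 59 fell and 9 rose, with the chaperonin subunits CCT2 (-0.66) and TCP1 (-0.61), HSPA4 (-0.61) and the abundant HSP90AA1 from 2419 ± 59.0 to 1785 ± 109.9 CPM (-0.44) lower. Against that, the small heat shock protein CRYAB rose by 3.70, less than with shSORD (4.32), and the inducible HSPA1B, which shares reads with a near copy, by 0.76.

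Building blocks fell too. Of 51 one-carbon and nucleotide genes 31 fell and 7 rose (median -0.32; shSORD -0.32), including 12 of 15 purine and 9 of 13 pyrimidine genes that fell. PSAT1 of serine synthesis fell from 209 ± 4.88 to 102 ± 11.4 CPM (log2 change of -1.03 with an SE of 0.0993, adjusted p = 5.27e-07), and the mitochondrial folate enzyme MTHFD2 (-0.80) and CTP synthase CTPS1 (-0.79) fell as well. Thymidine phosphorylase TYMP, a breakdown enzyme, fell more than with shSORD (-1.39 against -0.35), while the pyrimidine-degrading DPYD rose (1.37). Of 12 polyamine genes 5 fell and 1 rose. Spermine oxidase SMOX stood at 225, 207 and 211 CPM in the control libraries and 66.7, 69.8 and 65.8 CPM with shAKR1B1 (log2 change of -1.67 with an SE of 0.0771, adjusted p = 2.06e-10), without overlap, ornithine decarboxylase ODC1, which commits ornithine to polyamines, fell by 0.66, and spermidine synthase SRM fell by 0.86. In the urea cycle, the first enzyme CPS1 fell from 417 ± 0.564 to 254 ± 9.75 CPM (-0.72) and ASL rose (0.72). In lipid oxidation and storage 26 of 60 rose and 15 fell, the receptors of this system in opposite directions: PPARA rose (1.52) and PPARG fell from 43.0 ± 2.05 to 20.0 ± 0.806 CPM (-1.11). Sphingolipid genes stood at 12 up and 12 down of 42 (28.6% each), shares near those of all genes. The ceramide synthesis gene SPTLC3 (2.71) and the phosphatase SGPP2 (2.80) rose, and the sphingosine phosphate receptor S1PR3 stood at 98.9, 94.6 and 96.5 CPM in the control libraries and 19.1, 19.2 and 20.3 CPM with shAKR1B1 (log2 change of -2.31 with an SE of 0.0603, adjusted p = 6.66e-13).

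**Figure D3:**
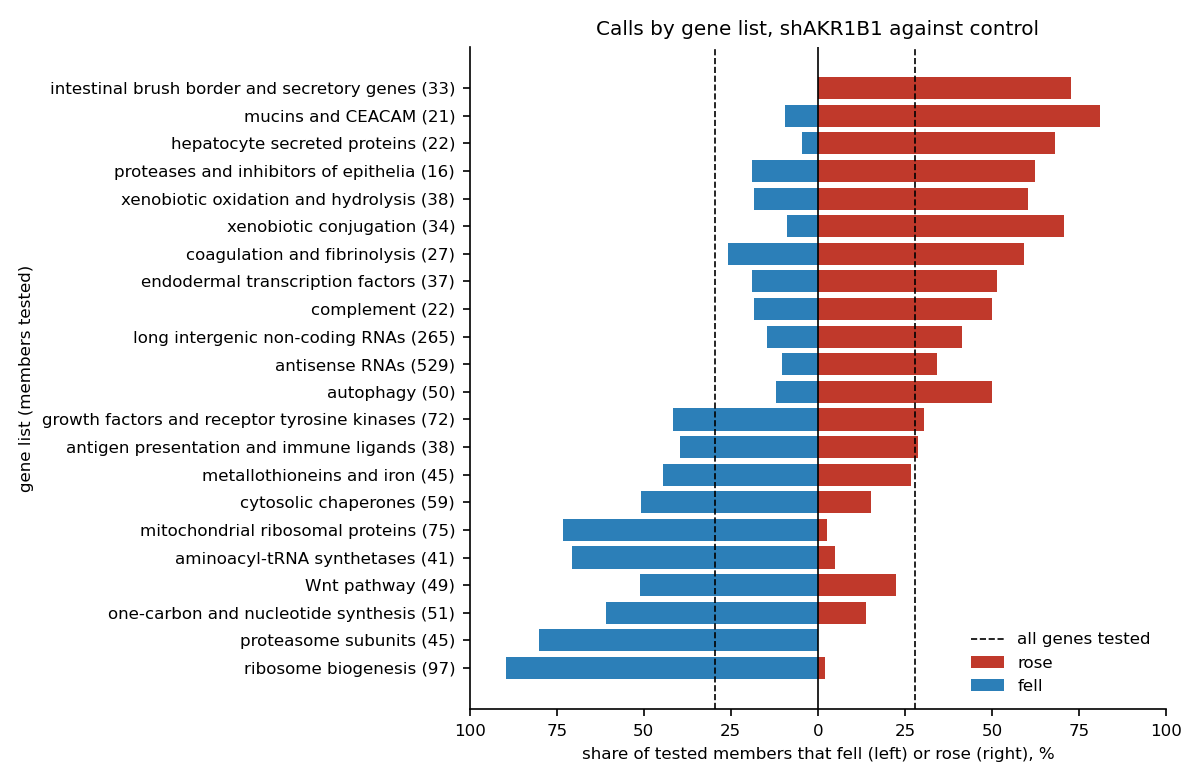
Share of tested members that rose (red, right) and fell (blue, left) in 22 gene lists, in percent, ordered by median log2 fold change, with the number tested in brackets. Dashed lines mark all genes tested (27.8% rose, 29.6% fell). The intestinal list has 24 of 33 rising and ribosome biogenesis 87 of 97 falling.

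Growth factor receptors and ligands changed in both directions. Of 72 tested genes 22 rose and 30 fell. ERBB3, the neuregulin receptor, stood at 11.7, 13.8 and 12.6 CPM in the control libraries and 154, 147 and 123 CPM with shAKR1B1 (log2 change of 3.47 with an SE of 0.121, adjusted p = 1.04e-11), without overlap, and its partner ERBB2 rose from 83.7 ± 2.32 to 198 ± 10.7 CPM (1.24). The EGF receptor ligands epiregulin (EREG, from 72.1 ± 1.67 to 27.3 ± 2.81 CPM, -1.40) and amphiregulin (AREG, -1.68) fell. FGFR3 rose (1.69), as did IGFBP5 (2.29), while the abundant IGF-binding protein IGFBP4 fell from 2547 ± 21.0 to 1676 ± 1.79 CPM (-0.60). The neurotrophin receptor NTRK3 stood at 372, 361 and 364 CPM in the control libraries and 109, 109 and 111 CPM with shAKR1B1 (log2 change of -1.74 with an SE of 0.0485, adjusted p = 1.04e-12), lower than with shSORD (-0.89). GFRA1, a GDNF co-receptor, fell by 3.01 with 19 to 33 counts per knockdown library.

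Immediate early and MAPK feedback genes, which respond within minutes to hours to such receptors, were mixed: 18 of 47 rose and 13 fell, and 33 of the 47 differed between the knockdowns. The AP-1 subunit JUN stood at 39.0, 39.1 and 39.3 CPM in the control libraries and 15.5, 16.8 and 16.1 CPM with shAKR1B1 (log2 change of -1.28 with an SE of 0.0713, adjusted p = 1.6e-09) and with shSORD at -0.26 (adjusted p = 5.85e-08 between them). FOSL1, another AP-1 subunit, fell by 1.56 and FOS rose by 1.32. The feedback inhibitor SPRY1 rose by 1.48 against 0.02 with shSORD. By role, 4 of 10 phosphatases rose and 3 fell, and 5 of 14 feedback inhibitors rose, 1 fell and 8 were not called. Of 23 immediate early factors 9 rose and 9 fell. DUSP6, ETV4 and ETV5, chosen after their values were seen, rose by 0.64, 0.61 and 0.30. With shSORD they stood at -0.41, -0.56 and -0.73, each higher with shAKR1B1 in the direct contrast (adjusted p = 6.37e-06, 2.19e-06 and 1.48e-08 by edgeR). The phosphatase DUSP7 (-1.10) and PHLDA1 (-1.18) fell.

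Wnt pathway genes fell more often than they rose, 25 against 11 of 49 (median -0.30). Of 11 tested ligands 8 fell and 2 rose, and of 10 targets and factors 5 fell and 0 rose. Antagonists fell as well, 7 of 12 with 3 rising, while of 16 receptors 6 rose and 5 fell. The activity of the pathway was not measured. The feedback inhibitor NKD1 (-1.58), the R-spondin receptor LGR6 (-1.54), the non-canonical receptor ROR2 (-1.92) and TNFRSF19 (-1.96; shSORD 0.15) fell. CXXC4, a Dishevelled-binding inhibitor, rose by 4.02 from 9 to 12 counts per control library, and the receptors FZD8 (1.08) and FZD4 (0.84; shSORD -0.10) rose. In the Notch list 9 rose and 9 fell of 29 (31.0% each), shares near those of all genes. Without shAKR1B1 replicate 1, control replicate 1 or control replicate 3, 5 fell. The receptor NOTCH3 rose from 209 ± 6.16 to 433 ± 10.3 CPM (1.05) and the target HES1 by 1.28, and MAML2 fell (-0.91). In the hedgehog list 8 rose and 7 fell of 18. The ligand SHH (2.59, 25 to 41 counts per control library) and the receptor PTCH1 (0.85) rose, and the transcription factors GLI2 (-0.82) and GLI3 (-1.78) and the co-receptor BOC (-1.595) fell. HHIP, which traps the ligand, stood at -0.85 here and at -4.92 with shSORD.

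Guidance receptors and their ligands also moved both ways. Among 64 guidance genes 25 rose and 21 fell. Semaphorins and plexins rose in 15 of 26 and fell in 5, among them PLXNC1 (3.15), SEMA3D (2.56) and SEMA4G from 22.9 ± 0.455 to 88.8 ± 1.78 CPM (1.96). The ephrin receptor EPHB2 stood at 104, 100.6 and 102 CPM in the control libraries and 26.6, 30.1 and 28.2 CPM with shAKR1B1 (log2 change of -1.85 with an SE of 0.0655, adjusted p = 1.29e-11), without overlap, and the ligand EFNB2 (-1.86) and the netrin receptor UNC5D (-2.46) fell too. Among the 64 are 9 teneurins and latrophilins, paired adhesion receptors of the nervous system, of which 7 fell, 5 of them at least 2-fold, and 2 rose. Neural adhesion genes stood at 12 up and 16 down of 37, and 28 of them differed between the knockdowns. KIRREL1 (-1.43), KIRREL3 (-2.74) and NRCAM, from 245 ± 1.71 to 125 ± 3.06 CPM (-0.97; shSORD 0.36), fell, whereas the neuropeptide gene NTS stood at 71.8, 72.6 and 71.1 CPM in the control libraries and 487, 442 and 428 CPM with shAKR1B1 (log2 change of 2.65 with an SE of 0.0862, adjusted p = 5.02e-12). CPLX2, a regulator of vesicle fusion and among the most abundant transcripts that fell, went from 3654 ± 90.6 to 1580.3 ± 55.0 CPM (-1.21; shSORD -1.21).

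Ion channels changed in both directions. Of 44 potassium channel genes 17 rose, 9 of them at least 2-fold, and 16 fell, 11 of them at least 2-fold. The inward rectifiers KCNJ16 (3.33) and KCNJ11 (1.53) and the background channel KCNK5 from 6.26 ± 0.470 to 23.7 ± 1.06 CPM (1.92) rose. The calcium-activated KCNMA1 stood at 35.7, 37.1 and 37.0 CPM in the control libraries and 1.93, 2.07 and 2.39 CPM with shAKR1B1 (log2 change of -4.09 with an SE of 0.105, adjusted p = 6.66e-13), KCNN4 fell by 1.15, and KCNH1 fell by 3.40 to 6 to 14 counts per library, with -0.45 in shSORD. Of 68 other channel genes 29 rose and 17 fell. The sodium channel SCN9A (1.83) and the calcium channel CACNA1D (1.05) rose, and the calcium channel CACNA1G (-1.46; shSORD 0.02) and the sodium leak channel NALCN (-1.17) fell. The adhesion receptor ADGRG1 stood at 253, 235 and 251 CPM in the control libraries and 70.5, 68.4 and 69.7 CPM with shAKR1B1 (log2 change of -1.82 with an SE of 0.0541, adjusted p = 1.78e-12), without overlap, and with shSORD at 245, 256 and 236.2 CPM, a difference between the knockdowns of -1.82 on the log2 scale (adjusted p = 1.15e-11). The olfactory-type receptors OR51E1 (14 to 21 counts per control library and 535 to 663 with shAKR1B1) and OR51E2 (7 to 12 and 103 to 147) rose, out of 4 of the family that passed the filter.

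Genes that present antigens did not move as 1 group. Class I loads peptides cut by the immunoproteasome and pumped by TAP, and class II loads peptides with the help of HLA-DM. Of 20 tested class I genes 11 fell and 3 rose. The immunoproteasome subunits PSMB8 (15.2 ± 0.438 to 8.53 ± 0.541 CPM, -0.84) and PSMB9 (-0.93) and the transporter TAP1 (31.5 ± 0.341 to 17.4 ± 0.612 CPM, -0.86) fell, as did TAP2 (-0.84). With shSORD, PSMB8 stood at 0.11, PSMB9 at 0.0032 and TAP1 at 0.35, and these differed between the knockdowns (adjusted p = 6.89e-07, 4.74e-06 and 6.82e-09), while TAP2 did not pass that test. Of 11 listed class II pathway genes only 3 passed the filter, for which the caution on silent genes holds too, and these rose, the protease CTSS by 0.34, HLA-DMB at 5.00, 4.19 and 4.48 CPM in the control libraries and 36.7, 33.6 and 32.3 CPM with shAKR1B1 (log2 change of 2.91 with an SE of 0.133, adjusted p = 1.89e-10) and HLA-DMA by 1.51. Of the 10 leukocyte markers only 2 passed the filter, and they moved in opposite directions: ITGAM, an integrin of myeloid cells, had 87 to 112 counts per control library and 155 to 227 with shAKR1B1 and rose (0.87), and CD14 had 316 to 351 and 169 to 212 and fell (-0.83). Their part in the class II values was not tested. Over the whole antigen presentation and immune ligand list 11 rose and 15 fell of 38, and 26 differed between the knockdowns. The stress ligand ULBP2 (-1.07) and CD70 (-1.35) fell, and the cytokine TNFSF15 (2.04), the receptor CD40 (1.74) and TNFSF10, which encodes TRAIL (3.30, 9 to 16 counts per control library), rose. The chemokines CXCL1 (-0.85) and CXCL8 (-0.70) fell less than with shSORD (-1.88 and -1.06), and CXCL5 rose slightly (0.22) where shSORD stood at -0.85. The scavenging receptor ACKR3 fell by 3.34, and IL15RA (-1.33) and IL27RA (-1.08) fell, while the decoy receptor IL1R2 rose (1.98).

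Genes of metal handling were mixed, with 12 rising and 20 falling of 45. The iron exporter ferroportin (SLC40A1) stood at 13.3, 12.4 and 13.1 CPM in the control libraries and 86.8, 79.5 and 75.3 CPM with shAKR1B1 (log2 change of 2.64 with an SE of 0.0867, adjusted p = 5.87e-12), without overlap, the ferroxidase CP rose as above, and BMP6, which signals iron excess, rose by 1.40 against -0.01 with shSORD. Of the ferritin chains, the light chain FTL rose from 7090.3 ± 248 to 8773 ± 494 CPM (0.31) and the heavy chain FTH1 fell from 4048 ± 24.4 to 3303 ± 118 CPM (-0.29). The iron-sensing IREB2 fell by 0.71 (shSORD 0.02) and the ferrireductase STEAP3 fell by 0.68. Of 5 tested metallothioneins, which bind zinc and copper, 4 fell and 0 rose, among them MT2A from 60.0 ± 3.82 to 28.1 ± 2.17 CPM (-1.09). Autophagy genes rose in 25 of 50 and fell in 6 (median 0.18; shSORD 0.31), with GABARAPL1, an autophagosome membrane protein, from 29.3 ± 1.37 to 84.1 ± 6.03 CPM (1.52), less than with shSORD (1.80), and ATG101 falling (-0.73). In the lysosome list 27 (31.8%) rose and 25 (29.4%) fell of 85, shares near those of all genes. Among them 11 of 22 genes of the proton pump and its regulators fell, ATP6V0A4 the most (-3.92, 3 to 9 counts per knockdown library). The cholesterol exporter NPC1 fell from 92.5 ± 1.496 to 53.7 ± 0.840 CPM (-0.78).

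Of 118 chromatin regulators 33 rose and 39 fell (median -0.05), shares near those of all genes, with the polycomb members EZH1 (1.02) and CBX7 (1.43) and the deacetylase HDAC5 (1.596) rising and SIRT1 falling (-0.68). Of 74 DNA repair genes 27 fell and 10 rose, and 0 of these fell 2-fold (XRCC3 -0.68, RAD51C -0.59). Death regulators stood at 16 (32.0%) up and 17 (34.0%) down of 50, also near the shares of all genes, with the inhibitor BIRC5 lower (-0.62) and the BH3-only gene BMF higher (1.02). Clock genes stood at 7 up and 11 down of 23, PER2 rising (0.37) and PER3 (-0.90) and TEF (-0.82) falling. Cilium genes rose in 26 of 66 and fell in 9, with a median of 0.12. Of 31 HOX genes, which specify position along the body axis, 12 rose and 8 fell (5 without shAKR1B1 replicate 2 or 3), with HOXB3 (0.95), HOXB5 (1.06) and HOXB6 (1.07) rising and HOXA7 (-0.74) and HOXC8 (-0.57) falling.

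Genes of types other than protein coding, from which pseudogenes were not removed, rose about as often as protein-coding ones and fell less often. Of 3018 such genes tested 859 (28.5%) rose, 369 (12.2%) fell and 1790 were not called (median 0.17). Of 13429 protein-coding genes 27.8% rose, 33.9% fell and 5139 genes were not called (median -0.03). Whether lower counts account for the fewer falls was not tested. Of 2091 intergenic LINC genes 265 passed the filter, and of these 110 rose and 39 fell. LINC02535 (2.55) and LINC02212 (4.69 ± 0.413 to 17.5 ± 0.802 CPM) rose, and LINC00941 (-2.37) and LINC01433 (-2.13) fell. Of 1778 antisense genes 529 passed the filter, and of these 181 rose and 54 fell. The caution on silent genes holds for both families and for the 3018 genes as a whole. TM4SF1-AS1 rose by 1.98, but the strand setting of the counting is not given in the sources used here, so reads of a gene and its antisense partner may not have been told apart. Host genes of small RNAs fell in 24 of 50 and rose in 13 (8 without shAKR1B1 replicate 1), with SNHG26 (-1.43) and MIR100HG (-1.17) lower and MIR29B2CHG higher (1.79). Mitochondrially encoded mRNAs gave 4.854% to 5.61% of counts per control library and 5.922% to 6.095% with shAKR1B1. Of 13 such mRNAs 3 rose, 2 fell and 8 did not pass, smaller shares than among all genes. MT-CO1 (0.38), MT-ND4 (0.39) and MT-ND4L (0.39) rose while MT-ND1 (-0.35) and MT-CYB (-0.35) fell, with shSORD at 0.28, 0.33, 0.20, -0.31 and -0.31.

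By chromosome, medians of the tested genes lay between -0.14 and 0.09. Chromosome 9 was lowest, with 39.7% of 667 genes falling and 22.8% rising, and its median with shSORD was -0.11. Chromosome 4, which holds the fibrinogen cluster, was highest, with 35.2% of 594 genes rising and 21.0% falling. Among the transcripts with the largest changes in CPM were structural genes. Keratin 18 (KRT18) rose from 2718 ± 42.9 to 4973 ± 149 CPM (0.87) and its partner keratin 8 (KRT8) by 0.65, while keratin 7 (KRT7) fell from 2015 ± 36.9 to 1189 ± 55.1 CPM (-0.76; shSORD -0.21). The translation factor EEF1A1 rose by 0.25 and the carbonic anhydrase CA12 by 0.37 (shSORD -0.06). Actin (ACTB, -0.52), filamin A (FLNA, -0.58; shSORD -0.06) and tubulin TUBB (-0.47) fell.

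**Figure D4:**
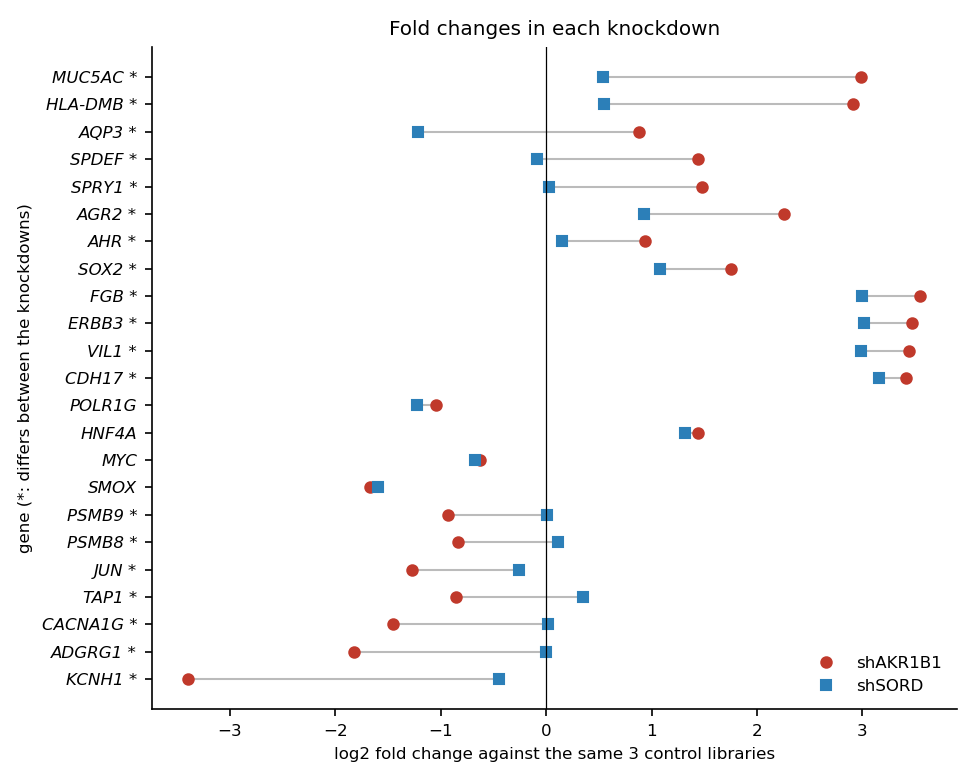
Log2 fold change of 23 genes with shAKR1B1 (red circles) and shSORD (blue squares), each against the same 3 control libraries, ordered by the gap. Stars mark genes whose knockdowns differed in the direct contrast. ADGRG1, PSMB9 and CACNA1G sit near 0 with shSORD and below it with shAKR1B1, and HNF4A, MYC, POLR1G and SMOX carry no star.

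The comparisons of shAKR1B1 and of shSORD with control use the same control libraries, so values that are alike in both share that source, and only the direct contrast tests a difference. The intestinal list as a whole had a median of 2.26 with shAKR1B1 and 1.26 with shSORD, with 23 of 33 tested members differing between the knockdowns. Its 13 microvillus genes had medians of 2.84 and 2.33, and 10 of them differed. VIL1, MYO1A and the adhesion gene CDH17 were higher with shAKR1B1 (shSORD 2.99, 3.04 and 3.16). Fibrinogen chains were likewise higher with shAKR1B1 (FGB 0.55, FGG 0.84 and FGA 0.84 against shSORD, adjusted p = 0.000192, 1.53e-05 and 4.57e-06). Related lists did not all have the larger median with shAKR1B1. Medians with shAKR1B1 and shSORD were 1.499 and 0.74 for hepatocyte secreted proteins and 1.66 and 1.62 for the mucin list. They were 0.57 and 0.68 for the clotting list and 0.46 and 0.71 for complement. Differences between list medians were not tested. Among single genes, VTN and, outside these lists, CRYAB and GABARAPL1 were lower with shAKR1B1 than with shSORD. The fall of ribosome biogenesis, proteasome and mitochondrial ribosome genes differed in 22 of 97, 9 of 45 and 16 of 75. A difference that did not pass is not shown to be absent: for HNF4A it was 0.12 and for POLR1G 0.18.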

How the data were processed

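RNA from A549 cells, 3 libraries per group, was sequenced as stranded poly(A) libraries per the labels' protocols. The authors deposited raw counts per Ensembl gene ID for 57905 IDs. The submitters' processing notes name cutadapt 1.9.1, STAR 2.5.2b, featureCounts 1.5.1 and DESeq2 1.12.3 with the build GRCh37. Neither the annotation release nor the strand setting is given in the sources used here. Columns were matched to samples by title, with 0 left unmapped. Counts were filtered by edgeR's filterByExpr, TMM-scaled and fitted for all 9 libraries together with the quasi-likelihood test of edgeR 4.0.16 in R 4.3.3, and an adjusted p under 0.05 (Benjamini-Hochberg) counted as a call. CPM were computed here from TMM-scaled library sizes. On simulated counts for this comparison over 16916 genes, 50 of 50 genes changed by 1 on the log2 scale were called in each direction. Calls were made for 42 of 50 changed by -0.5 and 46 of 50 changed by 0.5. All other genes were left unchanged, and 4.57% of the calls there were false. The changed genes were drawn only from those with a mean above 1 CPM, and every gene was given the same spread between replicates. Recovery of genes with fewer counts, or with a spread that differs from gene to gene, was not tested. In the data 4705 genes rose and 5011 fell, and the rate of false calls with that many changes was not tested.

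The gene lists were chosen with earlier results of these data known, so no count over a list is independent support. Of 2411 list entries 20 matched no single gene ID. Named genes follow a rule: in each list or symbol family the 4 largest called rises and falls with a mean of at least 50 counts, ranks 11 to 30 over all genes, the 15 largest changes in mean CPM each way, the 5 largest non-coding changes each way, and the aldo-keto reductase, osmotic, dicarbonyl and prostaglandin lists whatever their value. Genes outside it were chosen after their values were seen: ALB, ANKS4B, CDHR2, CTSS, DDX21, DUSP6, ERBB2, ETV4, ETV5, F5, FGA, MGAM, MUC13, MYC, PLAU, POLR1G, SPDEF, TFPI, THBD, USH1C and UTP4. Promoter windows came from RefSeq on GRCh38.p14, matched by symbol for 11764 of the genes tested, and any window of a gene was searched. Some items are not reported here. Alternatives were RLE and upper quartile scaling, no filter and a stricter filter (mean of at least 50 counts), a fit of 6 libraries, a replicate block, a test against a 1.5-fold change, DESeq2 1.42.0, and each library left out in turn.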

Additional observations from a re-analysis of the deposited data

How the results depend on the processing

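Counts of genes kept within 1.5 times of those reported under the 2 other scalings, without the filter, in a fit of 6 libraries, with DESeq2 and with each library left out. Against a 1.5-fold change in place of no change, 1473 genes rose and 841 fell, and 388 were higher and 403 lower with shAKR1B1 than with shSORD. The stricter filter, which tests fewer genes, left 740 rising and 324 falling at least 2-fold. No replicate number is said to mark a shared batch. Deviations of same-numbered control and shAKR1B1 libraries correlated at -0.0285, -0.0147 and -0.0211. These values cover all tested genes, and counting noise of genes with few counts can hide a shared batch. Whether the numbers pair the samples is therefore not settled. With the replicate block 4841 genes rose and 5153 fell. Upper quartile scaling moved the median by 0.0599 and the share of rises among calls from 48.4% to 56.5%. Leaving aside the test against a 1.5-fold change, of 7616 values of 587 genes under an alternative, 7455 kept their direction and side of the threshold, 136 kept the direction but no longer passed, 25 passed only there and 0 reversed. The calls of 32 genes ended under at least 1 of these alternatives and, for each of them, when 1 library was left out. Against a 1.5-fold change, read gene by gene after seeing the data, 208 of the 562 called genes did not pass. Of 1742 counts over lists, 1664 stayed within 1.5 times and 78 moved by more, 18 of them under the stricter filter, which left 15 intestinal and 14 conjugation genes rising, 51 LINC genes rising and 21 falling, and 111 antisense genes rising and 26 falling. Genes with few counts per library carry the widest errors, and a fitted change from 0 to 3 counts depends on the prior count.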

Other observations

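Large gene families, defined by symbol, also moved in both directions. Of 237 tested solute carriers, which move nutrients and ions across membranes and some of which are in lists above, 81 rose, 29 of them at least 2-fold, and 78 fell. Of 390 zinc finger ZNF genes 97 rose and 89 fell, with a median log2 fold change of -0.02. Of 26 histone genes 4 rose and 9 fell. Among 32 protocadherins, cell adhesion proteins of the cadherin superfamily, 6 rose and 8 fell (5 without shAKR1B1 replicate 3 and with DESeq2) with a median of -0.25, while the median with shSORD was 0.62, and 17 differed between the knockdowns by edgeR. Tripartite motif genes, many of which encode ubiquitin ligases, rose in 19 of 48 and fell in 13.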
